A study of Rattus norvegicus with 24 samples.

Results

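The 9 genes described here, Acta1, Myh1, Myh4, Mylpf, Tnnc2, Tnni2, Tnnt3, Atp2a1 and Ckm, encode proteins of skeletal muscle. Most are forms of fast fibres, and the genes were taken from an FPKM table of rat whisker follicle and striatum by their symbols. Each symbol was found on 1 row of the table, so the genes make up 9 of its 17711 rows. FPKM counts the sequenced fragments of a gene for each kilobase of its transcript, relative to all fragments mapped in the library. The rats were male Sprague-Dawley rats that pressed a lever for intravenous infusions in daily sessions, and they received either saline (SA) or methamphetamine (MA) dissolved in saline. All rats had learned lever pressing for food before surgery, and the sources used here give no ages. Whisker follicles, the large hair follicles of the snout, and the striatum, which receives the cortical input to the basal ganglia, were taken from the same rats after the last sessions. This gave 6 libraries for each treatment in each tissue and 24 libraries in all. The genes were chosen as a possible measure of skeletal muscle attached to the follicles, and the striatum is the tissue without such muscle.

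In striated muscle, myosin heavy chains pull on thin filaments built from actin, tropomyosin and the 3 troponin subunits. The arrival of calcium on troponin C releases the block that troponin I and troponin T place on the filament, and a calcium pump of the sarcoplasmic reticulum then returns the calcium to its store. Whisker follicles are moved by small striated muscles of the whisker pad, which hold largely fast fibres and wrap around the base of the follicle.

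The follicle libraries held little RNA of the 9 genes, and the genes did not go the same way against the striatum. The fast myosin heavy chains were at or near 0 in the follicle, while mean Ckm was 22.5 times and mean Mylpf 2.32 times as high there as in the striatum. Summed over the 9 genes, the follicle held 8.30 to 18.4 FPKM in SA, with a median of 12.2, and 8.79 to 13.1 in MA, with a median of 11.5. This made up 0.000700% to 0.00136% of a library's summed FPKM. In the striatum the same sum was higher, at 19.1 to 25.8 FPKM in SA and 22.5 to 45.2 in MA. There it made up 0.00538% to 0.0108% of a library's summed FPKM. The fast myosin heavy chains Myh1 and Myh4, which define fast fibres, were at or near 0 in the follicle, while Acta1 and Tnnc2 took most of the sum in both tissues. The set was chosen as skeletal muscle genes. It is called the fast muscle genes below as a short name, although Acta1 and Ckm are not specific to fast fibres. The name is not read as a fibre type found in the follicle, and the set is not read as an amount of muscle. In bulk tissue, fewer cells of a type and less RNA per cell cannot be told apart.

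**Figure D1:**
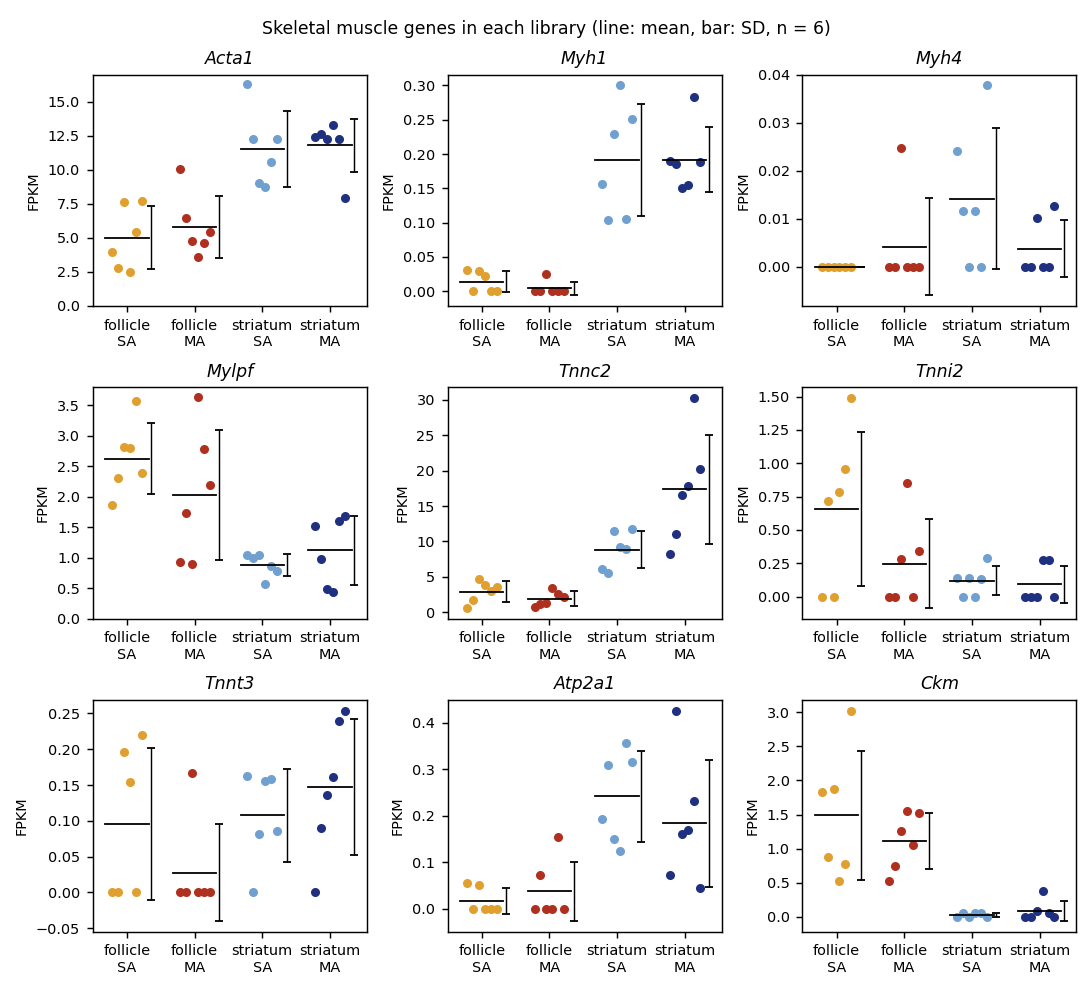
FPKM of each fast muscle gene (vertical axes, linear, a range of its own for each gene) in the 6 libraries of each tissue and treatment; points are libraries, lines are means and bars are SD. Acta1 and Tnnc2 lie higher in the striatum, Ckm lies above 0.5 FPKM in every follicle library, and Myh4 is above 0 in 1 of 12 follicle libraries.

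Some libraries need naming before the values, and a library is named here by the index of its column, which is not tied to a rat. A row that joins the symbols of 4 hair keratins was listed at 10772 to 41216 FPKM in 5 SA follicle libraries and at 0 in SA library 0 and in the 6 MA libraries. SA library 0 is thus unlike the other SA follicle libraries on that row, and results are given without it where they move. Follicle SA library 5 held striatal transcripts, with 27.1 FPKM over 10 genes of striatal neurons against 2.36 to 6.12 in the other 11 follicle libraries, and 49.9 FPKM of the myelin gene Mbp against 3.92 to 6.00. Its sum over the fast muscle genes, 18.4 FPKM, was also the highest of the follicle libraries. Striatum SA library 2 held 37.3 FPKM of hair shaft keratins against 0.922 to 3.91 in the other 11 striatum libraries. The part of these transcripts in the muscle values was not tested.

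Acta1 encodes skeletal α-actin, the main actin of the thin filament in adult skeletal muscle. In the SA follicle libraries it was at 3.95, 2.78, 7.65, 2.53, 5.45 and 7.70 FPKM, and in the MA libraries at 10.03, 6.44, 4.78, 3.62, 4.63 and 5.41. The 2 groups overlapped, and the highest value was that of MA library 0. In the striatum Acta1 was at 8.73 to 16.3 FPKM in SA, with a median of 11.4, and at 7.92 to 13.3 in MA, with a median of 12.4. The mean over 12 libraries was 5.42 ± 2.22 FPKM in the follicle and 11.7 ± 2.30 in the striatum (SD, n = 12), and only the highest follicle library reached into the striatum's range. Actin genes share long stretches of near-identical coding sequence, so fragments of other actins can be assigned to Acta1 and its level is uncertain.

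The myosin heavy chains Myh1 (type 2X) and Myh4 (type 2B) are the motors of fast fibres. Myh1 was listed at 0.0307, 0, 0.0293, 0.0228, 0 and 0 FPKM in the SA follicle libraries, and at 0 in the MA libraries except MA library 2, at 0.0248. Myh4 was listed at 0 in all 6 SA follicle libraries and in 5 of 6 MA libraries, and at 0.0248 FPKM in MA library 2. So MA library 2 was the only follicle library with a value for both. In the striatum Myh1 was above 0 in all 12 libraries, at 0.104 to 0.300 FPKM, and every striatum library lay above every follicle library. Striatal Myh4 was above 0 in 6 of 12 libraries and reached 0.0379 FPKM. The 2 genes lie in a cluster of similar myosin genes, and the sources used here do not say how shared fragments were divided. In a RefSeq annotation of another genome build (GRCr8), Myh1 overlaps LOC102555216, so the strand of its fragments is also uncertain.

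Mylpf encodes the phosphorylatable fast regulatory light chain of myosin. It was at 1.86, 2.31, 2.82, 2.80, 3.57 and 2.39 FPKM in the SA follicle libraries and at 0.929, 1.73, 0.901, 3.63, 2.78 and 2.19 in MA. The MA values spread over the whole SA range, with MA libraries 0, 1 and 2 below every SA library. In the striatum Mylpf was lower, at 0.564 to 1.05 FPKM in SA and 0.442 to 1.69 in MA, with an overlap of the tissues in the lowest follicle libraries. Mylpf was thus present in all 12 follicle libraries in which the myosin heavy chains it normally binds were nearly absent.

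The 3 fast troponin subunits differed widely in level. Tnnc2, the calcium-binding subunit, was at 0.563, 1.74, 4.76, 3.83, 3.07 and 3.62 FPKM in the SA follicle libraries and at 0.702, 1.12, 1.36, 3.43, 2.63 and 2.21 in MA. The groups overlapped, and the lowest value was that of SA library 0. Striatal Tnnc2 was at 6.11, 5.59, 11.5, 9.20, 8.98 and 11.8 FPKM in SA and at 8.26, 11.0, 16.6, 17.8, 30.3 and 20.3 in MA. All 12 striatum libraries lay above all 12 follicle libraries. Tnni2, the inhibitory subunit, was listed at 0, 0.719, 0, 0.784, 0.954 and 1.49 FPKM in the SA follicle libraries and at 0, 0, 0.281, 0.848, 0 and 0.341 in MA. Its highest value belonged to SA library 5. Tnnt3, the tropomyosin-binding subunit, was above 0 in 3 SA follicle libraries, at 0.154 to 0.220 FPKM, and in MA library 2, at 0.166. In the striatum Tnni2 did not exceed 0.293 FPKM and Tnnt3 did not exceed 0.254. So Tnnc2 was present without matching levels of its fast partner subunits Tnni2 and Tnnt3 in either tissue. Other troponin genes were present in the SA striatum, with means of 17.5 FPKM for the cardiac Tnni3 and 17.4 for the slow Tnnt1. Tnni2 overlaps Ifitm10, Ctsd, Syt8 and 2 further genes in the RefSeq annotation, so part of its fragments may belong to these.

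Atp2a1 encodes SERCA1, the calcium pump of fast fibres, and Ckm encodes the muscle form of creatine kinase, which restores ATP from phosphocreatine. Atp2a1 was above 0 in 4 of 12 follicle libraries, at 0.0548 and 0.0522 FPKM in SA libraries 0 and 2 and at 0.0724 and 0.154 in MA libraries 1 and 4. In the striatum it was above 0 in all 12 libraries, at 0.0448 to 0.425 FPKM. Atp2a1 overlaps Rabep2 in the RefSeq annotation. Ckm was at 1.84, 0.877, 1.88, 0.527, 0.779 and 3.02 FPKM in the SA follicle libraries and at 0.528, 0.747, 1.25, 1.55, 1.06 and 1.53 in MA. The groups overlapped, and the highest value was again that of SA library 5. Without that library the SA mean was 1.18 ± 0.632 FPKM (SD, n = 5) in place of 1.49 ± 0.940 (SD, n = 6). In the striatum Ckm was listed at 0 in 6 of 12 libraries and did not exceed 0.385, so every follicle library lay above every striatum library.

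In the follicle the genes ranked Acta1, Tnnc2, Mylpf, Ckm, Tnni2, Tnnt3, Atp2a1, Myh1 and Myh4 by mean FPKM, which is a level per length of transcript. The ranges of all neighbours in this order overlapped. Acta1 was above Tnnc2 in 11 of 12 libraries, but Tnnc2 was above Mylpf in only 5 of 12. Acta1 had a higher mean than 53.9% of the 13531 rows above 0 in the follicle, Ckm a higher one than 35.1%, and Myh4 a higher one than 0.140%. In the striatum Tnnc2 and Acta1 led, each above the other in 6 of 12 libraries. There Acta1 was above Mylpf and Mylpf above Atp2a1 without overlap of their ranges, and the ranges of the neighbours further down overlapped.

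The lowest values of the table step in whole fragments, which allows the number of fragments behind them to be estimated. This estimate was chosen after the data were seen. The size of a step was scaled in each library by 1022 rows with a value above 0 in 2 to 9 libraries. Of the 67 values of the fast muscle genes estimated at up to 12 fragments, 67 were within 0.2 of a whole number. The size of 1 fragment for each gene was fitted to these same values. Their closeness to whole numbers is thus in part built in and is not a separate check. Relative to the mean of the striatum libraries, 1 fragment was worth 1.68 to 3.50 times as much FPKM in the follicle (median 2.52) and 0.838 to 1.13 times in the striatum, so that a follicle value rests on fewer fragments than an equal striatum value.

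By this estimate Myh4 rested on 1 fragment and Myh1 on 4 fragments in the 12 follicle libraries together. Tnnt3 rested on 4, Atp2a1 on 7 and Tnni2 on 15. Ckm rested on 112, with 3 to 20 in a library. In the striatum the estimate was 191 fragments for Myh1 and 119 for Atp2a1, but 13 for Ckm and 9 for Myh4. A follicle library listed at 0 allows, at 3 fragments, up to 0.0608 to 0.127 FPKM of Myh4 and 0.693 to 1.31 FPKM of Tnni2, depending on the library. A difference in Tnni2, Tnnt3, Atp2a1, Myh1 or Myh4 between MA and SA follicles was therefore hardly detectable at this depth. These limits cover counting error only. A listed 0 can also be a failed estimate, since the table holds 2 rows for the housekeeping gene Hprt1 and 1 of them is at 0 in every follicle library.

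**Figure D2:**
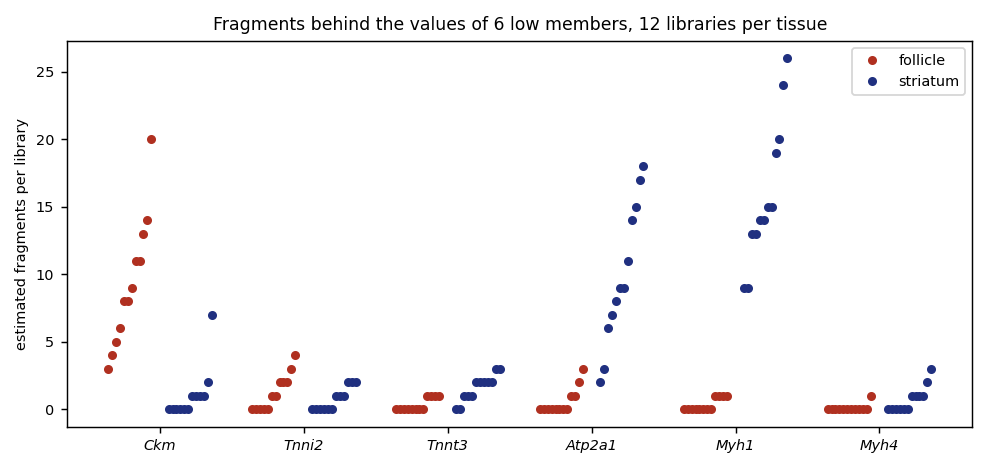
Estimated fragments per library (vertical axis, linear) for the 6 lowest fast muscle genes in 12 follicle and 12 striatum libraries; each point is a library, ordered by value. Ckm has more fragments in the follicle, with up to 20, and Myh1 and Atp2a1 have more in the striatum, with up to 26 and 18.

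Promoter sequences are shown for Ckm and Tnnc2, which lay on opposite sides in the tissue comparison, and for Myh4, which was nearly absent from both tissues. They are the 250 bases before the start of the gene, read 5′ to 3′ on the strand of the gene, from RefSeq (GRCr8), and were matched by symbol. The FPKM values were made on the rn6 build. Promoters of 8 of the 9 genes were matched (Mylpf as Myl11), and none was at hand for Tnnt3. Capitals mark CANNTG, the E-box that myogenic factors such as MyoD are known to bind. It reads alike on both strands.
Ckm (chr1:88189211-88189460, plus strand): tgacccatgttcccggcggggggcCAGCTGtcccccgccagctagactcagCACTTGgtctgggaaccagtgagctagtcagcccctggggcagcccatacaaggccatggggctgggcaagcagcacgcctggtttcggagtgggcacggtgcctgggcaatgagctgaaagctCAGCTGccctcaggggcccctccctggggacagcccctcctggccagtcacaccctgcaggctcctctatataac
Tnnc2 (chr3:173935340-173935589, minus strand): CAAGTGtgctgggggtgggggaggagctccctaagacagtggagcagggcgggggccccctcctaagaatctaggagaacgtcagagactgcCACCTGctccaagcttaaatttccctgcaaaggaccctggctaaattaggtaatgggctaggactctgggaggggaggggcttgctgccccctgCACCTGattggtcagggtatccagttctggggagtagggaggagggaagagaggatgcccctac
Myh4 (chr10:52421898-52422147, plus strand): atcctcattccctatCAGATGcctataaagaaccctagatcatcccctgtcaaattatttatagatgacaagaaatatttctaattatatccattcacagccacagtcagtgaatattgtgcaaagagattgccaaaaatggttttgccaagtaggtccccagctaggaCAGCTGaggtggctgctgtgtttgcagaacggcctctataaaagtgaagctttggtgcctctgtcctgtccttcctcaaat

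Ckm and Tnnc2 each had 3 E-boxes in this window, and 11.0% of the 27457 promoters searched had as many or more. Myh4 had 2, as had 30.1% of promoters or more. Acta1, Mylpf, Tnni2 and Atp2a1 each had 1, and 65.2% of promoters had at least 1. Myh1 had none in these 250 bases. A match is a description of the letters and not a binding site.

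Next, MA was compared with SA in the follicle with limma. The fit used log2(FPKM + 1) of the 9138 genes whose follicle mean reached 1 FPKM. A gene was called if its adjusted p was under 0.05 (Benjamini-Hochberg over all genes tested) and it changed 1.5-fold or more on this scale, on which changes of low genes come out too small. Of the 9 genes, 4 passed the filter and 0 were called. Over all genes tested 0 were called as well (0%), while 953 (10.4%) had an unadjusted p under 0.05, none of them a fast muscle gene. Acta1 had a difference of 0.22 on the log2 scale (SE 0.27, 95% interval -0.36 to 0.79, limma adjusted p = 0.690). The difference was -0.18 for Ckm (SE 0.24, interval -0.69 to 0.34, limma adjusted p = 0.716) and -0.32 for Mylpf (SE 0.22, interval -0.80 to 0.16, limma adjusted p = 0.504). For Tnnc2 it was -0.39 (SE 0.32, interval -1.09 to 0.30, limma adjusted p = 0.551). All 4 intervals included 0 and changes in both directions. When a library was left out, the difference of Acta1 ranged from 0.07 to 0.34, and it was 0.07 without MA library 0, 0.08 without SA library 3 and 0.10 without SA library 1. The mean was lower in MA for 3 of the 4 genes, against 51.7% of all genes tested. In exact permutation tests of single genes, over every way to split the 12 libraries (two-sided, not adjusted), p ranged from 0.188 for Tnni2 and 0.193 for Mylpf to 1 for Myh4. Myh4 was above 0 in 1 library, so its p was fixed in advance. Myh1, Tnnt3 and Atp2a1 were above 0 in 4 libraries each, too few for their p to fall under 0.05. The tests of these genes are therefore uninformative. The groups overlapped for all 9 genes, and 0.482% of the genes tested had groups that did not overlap.

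SA library 0 weighed on Tnnc2. Without it 1219 genes were called (13.5% of 9059) and 0 of the 4 fast muscle genes, and Tnnc2 had a difference of -0.63 (SE 0.26, interval -1.19 to -0.08, limma adjusted p = 0.0858). With limma's array weights, which count libraries that vary more for less, 1160 genes were called (12.7%), among them Tnnc2 at -0.84 (limma adjusted p = 0.0345). Without SA library 5, the difference of Ckm was -0.02 (exact permutation p = 0.918). Scaling the libraries to a common sum without keratin rows moved the median difference of all genes from -0.01 to 0.24. Acta1 was then at 0.47, Ckm at -0.02, Mylpf at -0.13 and Tnnc2 at -0.17, and relative to that median Acta1 lay above and the other 3 below it, as without scaling.

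**Figure D3:**
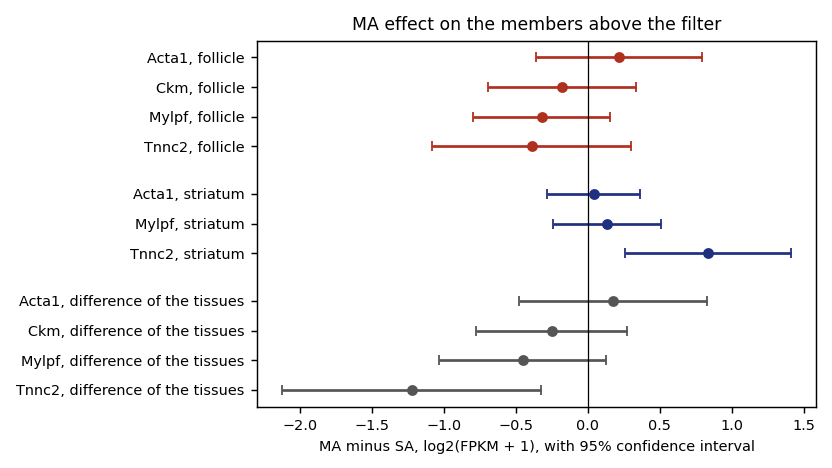
Difference of MA and SA on the log2(FPKM + 1) scale (horizontal axis; points are limma estimates and bars are 95% intervals) for the fast muscle genes that passed the filter in the follicle and the striatum, and for the difference between the tissues. Striatal Tnnc2 (0.83) and its difference between the tissues (-1.23) have intervals that leave out 0, and neither passed the adjusted threshold.

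In the striatum, 3 of the 9 genes had a mean of at least 1 FPKM and 0 were called, as against 1 of 10607 genes tested (0.00943%). The mean of Tnnc2 was 8.86 ± 2.61 FPKM in the SA libraries and 17.4 ± 7.73 in the MA libraries (SD, n = 6 each). The 2 groups overlapped, as did those of all but 0.358% of the genes tested. The difference was 0.83 on the log2 scale (SE 0.27, interval 0.26 to 1.41), with an unadjusted p of 0.00804 by limma and an adjusted p of 0.577. An unadjusted p under 0.05 was found in 8.26% of the genes tested. Acta1 differed by 0.04 (interval -0.28 to 0.37) and Mylpf by 0.13 (interval -0.24 to 0.50), with limma adjusted p of 0.955 and 0.855.

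An interaction term over the 24 libraries asked whether the MA effect was unlike in the tissues. The threshold was the adjusted p alone. Of 11533 genes, 1 passed (0.00867%), and 0 of the 4 fast muscle genes tested did. Tnnc2 had the largest estimate of the 4, at -1.23 (SE 0.43, interval -2.12 to -0.33, limma unadjusted p = 0.00948, adjusted p = 0.433). It passed without follicle SA library 0, at -1.47 (limma adjusted p = 0.0192), where 1587 genes passed (13.8%). It also passed with array weights, at -1.62 (limma adjusted p = 0.00743), where 2161 genes did (18.7%).

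The tissues themselves were compared in SA rats by the same fit, with 4 group means. Both tissues came from the same rats, and as the columns do not tell which libraries belong together, these 24-library fits treat libraries of a rat as independent. All 4 fast muscle genes tested were called, with Ckm and Mylpf higher and Acta1 and Tnnc2 lower in the follicle. Ckm passed the filter only through the follicle, where it is high. Most genes differed between the tissues, with 8681 of 11533 called (75.3%), 3629 higher (31.5%) and 5052 lower (43.8%) in the follicle. Under quantile normalization that split was 4244 higher and 3906 lower, and the 4 fast muscle genes were called in the same directions. The median difference of all genes was -0.30 on the log2 scale. Ckm was higher by 1.19 (SE 0.18) and Mylpf by 0.94 (SE 0.20), with limma adjusted p of 1.25e-06 and 0.000126. Acta1 fell by 1.12 (SE 0.22) from striatum to follicle and Tnnc2 fell by 1.40 (SE 0.31), with limma adjusted p of 6.17e-05 and 0.000184. FPKM is a level within a library, and its sums differed between the tissues. The summed FPKM was 774567 to 1524570 in the follicle and 348717 to 418892 in the striatum. No fit scaled the tissues to a common summed FPKM. The direction of Mylpf, with a ratio of mean FPKM of only 2.32, may differ as a share of that sum, which was not tested.

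As a ratio of mean FPKM over 12 libraries, Ckm was 22.5 times, Tnni2 4.33 times and Mylpf 2.32 times as high in the follicle as in the striatum. The striatal mean of Ckm rests on 13 estimated fragments, 7 of them in MA library 3, and without that library the ratio of Ckm was 46.4. The ratio went the other way for Acta1 (2.15 times as high in the striatum), Tnnc2 (5.42 times) and Myh1 (21.4 times, from 4 estimated fragments in the follicle). The ranges of the tissues were separate for Ckm, Tnnc2 and Myh1. In MA rats 73% of genes were called, and so were Ckm (0.94), Acta1 (-0.95) and Tnnc2 (-2.63). Mylpf, at 0.48 with a limma adjusted p of 0.0276, was under the fold limit there. With no filter on low values 61% of 14711 rows were called, and of the 9 genes only the same 4. Myh1 (-0.23) and Atp2a1 (-0.28), both lower in the follicle, had limma adjusted p of 2.41e-06 and 0.000213. Tnni2, higher in the follicle (0.50), had a limma adjusted p of 0.0198, and all 3 were under the fold limit on this scale.

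The other genes of the contractile apparatus and of muscle were taken from lists by function. In the follicle 0 genes of any list were called between MA and SA in the main fit, as were 0 of all 9138 genes tested (0%). Without SA library 0, 1219 genes were called (13.5%), and with array weights 1160 (12.7%). Calls within the lists were not counted in these 2 settings. Of 19 rows for sarcomere structure, 6 passed the filter in the follicle, 5 of them with a lower mean in MA (median -0.20, against -0.01 over all genes). Their leading genes were the tropomyosins Tpm1, at 734 ± 54.9 FPKM in SA and 671 ± 76.8 in MA, and Tpm2, at 456 ± 159 and 359 ± 59.4 (SD, n = 6 each). Tropomyosins are also made in non-muscle cells, and in the SA striatum their means were 102 and 8.96 FPKM. The fast light chain Myl1 was at 1.39 ± 0.908 FPKM in the SA libraries and 0.989 ± 0.694 in the MA libraries.

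The other fast and developmental myosins, Myh2, Myh3 and Myh8, summed to 0 to 0.197 FPKM in the follicle, and 0 of 3 passed the filter. They did not exceed 0.653 FPKM in the striatum. Of 9 slow fibre genes, 3 passed the filter in the follicle. Tnnc1, the troponin C of slow and cardiac muscle, was at 84.7 ± 33.0 FPKM in the SA libraries and 81.4 ± 43.1 in the MA libraries. This was many times the level of Tnnc2. The tropomyosin Tpm3 of this list, with a higher mean of 77.6 FPKM in the SA striatum, was at 44.6 ± 17.9 and 57.4 ± 11.98 in SA and MA follicles. Tnni1, slow troponin I, was at 5.44 ± 1.97 and 3.00 ± 1.25, with a difference of -0.67 (SE 0.27, limma unadjusted p = 0.0285, adjusted p = 0.465). Slow troponin T, Tnnt1, was listed at 0 in all 12 follicle libraries and had a mean of 17.4 FPKM in the SA striatum. The slow light chains Myl2 and Myl3 were also listed at 0 in every follicle library, Myl2 in every striatum library as well, and the slow myosin Myh7 had a mean of 0.0200 FPKM in SA. Of the 3 slow troponin subunits, 2 thus had values in the follicle and the third was listed at 0, which can be a failed estimate.

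The ratio of slow (Tnnc1, Tnni1, Tnnt1) to fast (Tnnc2, Tnni2, Tnnt3) troponin does not depend on the amount of a tissue, provided that this tissue holds both. Whether 1 tissue held both was not tested. The ratio was mainly that of Tnnc1 (mean 84.7 FPKM in SA follicles) to Tnnc2 (2.93), and Tnnt1 was listed at 0 in every follicle library. Its log2 was 3.17 to 7.06 in the SA follicle libraries and 4.52 to 7.14 in MA, and slow forms exceeded fast forms in all 12. The SA mean was 4.82 ± 1.35 and the MA mean 5.31 ± 0.96 (SD, n = 6 each). The difference of 0.49 had an exact permutation p of 0.491. A ratio of Myh4 to Myh1 could not be formed, since 11 of 12 follicle libraries had Myh4 at 0, and so 1 ratio was computed.

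**Figure D4:**
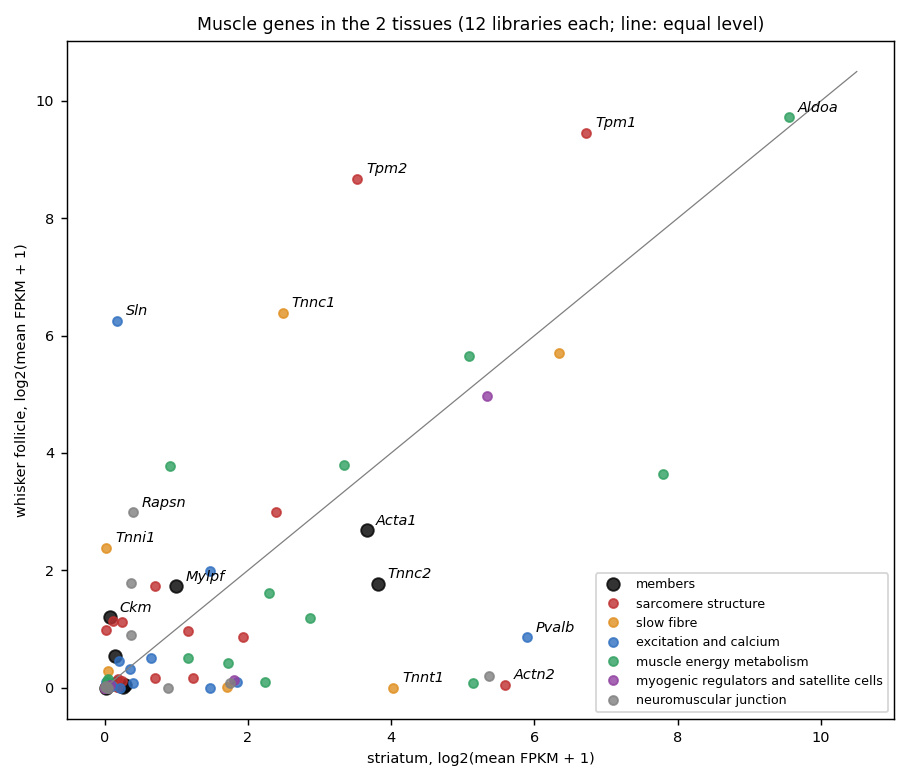
Mean level of muscle genes in the striatum (horizontal axis) and the whisker follicle (vertical axis), both as log2(mean FPKM + 1) over 12 libraries; colours give the gene lists, and the line marks equal levels. Tpm1, Tpm2, Tnnc1, Tnni1, Sln, Mylpf and Ckm lie above the line, and Acta1, Tnnc2, Tnnt1, Actn2 and Pvalb lie below it.

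Genes of calcium handling and energy supply were mixed. Sln, which encodes sarcolipin, an inhibitor of the sarcoplasmic reticulum calcium pump, was at 85.9 ± 31.8 FPKM in SA follicles and 64.4 ± 13.7 in MA, against a mean of 0.252 in the SA striatum. The calcium store protein Casq2 was at 3.05 ± 1.40 and 2.88 ± 0.789. Pvalb, the calcium buffer of fast fibres and of a class of interneurons, was at 0.890 ± 0.691 in SA follicles and had a mean of 67.0 in the SA striatum. Of 14 genes of muscle energy metabolism, 7 passed the filter in the follicle, led by the glycolytic aldolase Aldoa at 882 ± 106 FPKM in SA and 806 ± 120 in MA. The fatty acid carrier Fabp3 followed, at 50.6 ± 18.8 and 48.0 ± 15.1 FPKM.

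Of 10 rows for myogenic regulators and satellite cells, 7 were listed at 0 in all 12 follicle libraries, including Myod1, Myog and Pax7, the factors of muscle determination, differentiation and satellite cells. Mef2d, a widely expressed factor, was the only 1 to pass the filter, at 27.5 ± 13.4 FPKM in SA and 33.4 ± 4.41 in MA. Of 10 genes of the neuromuscular junction, 3 were at 0 in every follicle library, including the receptor kinase Musk. Rapsn, which clusters acetylcholine receptors, was at 7.79 ± 3.15 FPKM in the SA libraries and 6.07 ± 1.46 in the MA libraries, against means of 0.355 and 0.276 in the striatum. The receptor subunit Chrnb1 was at 2.45 ± 0.952 and 2.44 ± 0.584 FPKM in the follicle. Another subunit, Chrne, was at 0.832 to 1.54 FPKM in SA and 0.365 to 0.757 in MA follicles, without overlap. It was under the filter and its difference was not tested. Of the genes above the filter, 0.482% had groups that did not overlap. The atrophy and denervation list had 6 of 8 genes tested in the follicle, and all 6 means were higher in MA (median 0.29, against -0.01 over all genes tested, of which 51.7% were lower). The tested genes of the fibroblast (5 of 5, median 0.41) and smooth muscle lists (5 of 5, median 0.21) also had higher means in MA, and the part of those cells in this was not tested. Gadd45a, a growth arrest and stress gene, was at 109 ± 7.76 and 123 ± 11.5 FPKM, and the transcription factor Runx1 at 11.2 ± 4.56 and 14.5 ± 5.32. Fbxo32, a ubiquitin ligase of muscle atrophy, was at 6.94 ± 7.72 and 9.54 ± 2.85 FPKM (0.81, SE 0.45, limma adjusted p = 0.466). In the dystrophin complex and membrane repair list 5 of 10 were tested in the follicle and all 5 means were higher in MA (median 0.19), as in the lists just named. Dag1, which encodes dystroglycan, was at 22.3 ± 4.31 and 25.6 ± 4.95 FPKM. Dysf, which encodes the membrane repair protein dysferlin, was at 21.0 ± 3.92 and 21.4 ± 5.35 FPKM.

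Markers of other cell types were read beside the fast muscle genes, since several of these are not made by skeletal muscle alone. The summed cardiac list was at 16.9 to 55.4 FPKM in SA follicles and 20.4 to 31.9 in MA, nearly all of it from Tnnt2 (31.4 ± 13.7 in SA), while Actc1 had means of 0.0539 and 0.0222 FPKM and Myl7 was at 0 in both tissues. The smooth muscle list summed to 58.1 to 127 FPKM in SA and 63.9 to 178 in MA. It was led by Tagln and Smtn, whereas Myh11, the smooth muscle myosin, had means of 0.349 and 0.228 FPKM and Lmod1 was at 0 in every follicle library. The fibroblast list summed to 68.5 to 157 FPKM in SA and 92.7 to 237 in MA, led by Sparc, with Lum at 0 in every follicle library. Col1a2 was listed at 0 in all 24 libraries of both tissues, so its row gives no information on the follicle. The adipocyte list summed to 2877 to 16627 FPKM in SA and 2963 to 10288 in MA, almost all of it Fabp4, with Plin1 and Adipoq at 0. The Schwann cell and myelin list summed to 21.9 to 94.3 FPKM in SA and 19.3 to 31.0 in MA. Hair shaft keratins summed to 26243 to 89477 FPKM in SA and 33158 to 74133 in MA, and keratins of the epidermis and outer root sheath to 30309 to 71174 and 30049 to 56379. The hair shaft sum includes the joint keratin row, listed at 10772 to 41216 FPKM in 5 SA libraries and at 0 in the 6 MA libraries. Of the 7 hair shaft rows tested, only this 1 was lower in MA, so the summed ranges do not show the direction of the others. Striatal neuron genes summed to 3.39 to 27.1 FPKM in SA and 2.36 to 6.12 in MA. The part of these cell types in the levels of the fast muscle genes was not tested.

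Finally, the fast muscle genes were compared with each other and with all genes across the 12 follicle libraries, as a description. The libraries differ in depth and in keratin share, which all genes have in common. Mylpf and Tnnc2 were the most alike of the 36 pairs (Pearson r = 0.76), and Acta1 had an r of -0.37 with Mylpf and -0.12 with Tnnc2. Among the 10 genes most like the mean of the 9 were Pcnp (r = 0.95), Tm7sf2 (0.95), Akt1s1 (0.94) and Sdcbp2 (0.93), followed by Wbp1l, Pgam1, Wdr34, Tango2 and Psat1 (each 0.92). None of the 10 is on a muscle list. The median r over 9134 genes was 0.04.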

How the data were processed

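Whisker follicle and striatum RNA of 6 SA and 6 MA rats was poly(A)-selected, made into libraries with a kit that does not mark strand and sequenced in pairs. The authors deposited 1 table of FPKM values with 17711 rows. Reads were trimmed with Cutadapt, aligned to rn6 with TopHat2 and quantified with Cufflinks, by the study's methods. STAR 2.6.0c is the aligner in the submitters' processing notes, beside Cufflinks 2.2.1, bcl2fastq and the same build. The sources used here give no annotation, strand setting or scaling of the libraries. The table has no read counts, so depth was estimated only from the steps of low values.

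Columns were assigned to groups by their names, and no column was left out. Their index could not be tied to rat numbers, so libraries were unnumbered replicates, of separate rats within a tissue, with no link between the tissues of a rat. MA and SA were compared on log2(FPKM + 1) with limma 3.58.1 (R 4.3.3; moderated variances with a trend on mean level) over genes with a mean of at least 1 FPKM, and single genes by exact permutation tests with pandas 2.3.3 and numpy 2.4.6. Cuffdiff, used in the study, needs reads. All tests were two-sided. The fits of MA against SA within a tissue and the exact permutation test were tried on simulated data. The tissue contrast and the interaction were not. The 9 genes, the companion lists and the tests were chosen with earlier results of these data known. Genes named from a list are its called genes up to 4, or else 2 to 4 with the highest follicle mean, and the 10 genes most like the mean of the 9, of which 9 are named and the other is not reported here. Other named genes, such as Tnnt1, Tnni3, Fbxo32, Pvalb, Myl2, Myod1, Musk, Chrne and Myh11, were chosen after their values were seen. Listed genes without a row were not analysed here. The alternatives were another pseudocount (0.1), no filter or a mean of at least 5 FPKM, quantile normalization, a common median, a common sum without keratin rows, array weights, the MA rats for the tissue contrast, and leaving out each library.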

Additional observations from a re-analysis of the deposited data

Results flagged for a closer look

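In 7 of 37 groups of 6 libraries, 1 library lay far from the other 5 of its group, as judged by its gap to the nearest library over the range of the group. For continuous values chance gives about 1 such group in 20, a rate that does not hold for 3 of these groups, in which 1 library has 1 fragment and the other 5 are at 0. In the follicle, MA library 2 stood apart for Myh1 (0.0248 FPKM), Myh4 (0.0248) and Tnnt3 (0.166). It was the only MA library above 0 for each of these genes, and each value is that of 1 estimated fragment. For the log2 ratio of slow to fast troponin, follicle MA library 0 was highest at 7.14. In the striatum, MA library 5 was lowest for Acta1 at 7.92 FPKM, MA library 3 was highest for Ckm at 0.385 and MA library 4 was highest for Myh1 at 0.283. The striatal Ckm value corresponds to 7 estimated fragments.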

How the results depend on the processing

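In the follicle, 0 genes were called between MA and SA, and this became 1160 with array weights and ranged from 0 to 1219 when a library was left out, with the highest count without SA library 0. In the striatum the count of 1 became 0 at a mean of at least 5 FPKM and ranged from 0 to 4 without a library, with 4 without MA library 5. For the difference between the tissues in the MA effect, the count of 1 became 3 with a pseudocount of 0.1, 4 without a filter, 0 at a mean of at least 5 FPKM, 2 under quantile normalization and 2161 with array weights, and it ranged from 1 to 1587 without a library, again highest without follicle SA library 0. It was 7 without striatum MA library 5, 4 without striatum SA library 3 and 2 without striatum MA library 1 or follicle SA library 3. The cause was not tested. Of 505 values of single genes under the alternatives, 496 kept direction and side of the threshold, 1 was weaker, 3 were stronger and 5 changed sign. The sign changed for Atp2a1 in the follicle without MA library 4 (-0.0049, with 0.037 the highest value without a library), for striatal Acta1 with array weights (-0.00054), without SA library 3 (-0.025) and without SA library 2 (-0.016), within a range of -0.025 to 0.14 without a library, and for striatal Mylpf with array weights (-0.10). In the tissue contrast, Acta1, Ckm, Mylpf and Tnnc2 were called in all 24 fits that left out a library. Most genes were called there too, 8585 to 8859 in a fit, against 75.3% of the genes tested in the main fit. Ckm passed the filter only through the follicle. The tissue ratio of mean Ckm of 22.5 became 46.4 without striatum MA library 3, an alternative chosen after seeing the data. The difference in the troponin ratio ranged from 0.12 to 0.94 without a library. No paired analysis was possible because the columns carry an index that is not the rat number, and rat numbers do not pair SA with MA rats. Depth limits the 5 genes with at most 15 estimated fragments in the follicle.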
